A study of Mus musculus with 6 samples.

Results

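Transcript levels of 10 genes of the neuronal cytoskeleton were examined in mouse cerebellar granule neuron (CGN) cultures that had received the EZH2 inhibitor GSK-126 or its vehicle DMSO. The set was given as a list of names, with no measured value in the rule. It held the neurofilament genes Nefl, Nefm and Nefh, the internexin gene Ina, the microtubule-associated protein genes Map2, Mapt and Map1b, the doublecortin gene Dcx and the stathmin genes Stmn1 and Stmn2. These were 10 of the 55341 gene symbols in the count tables, and all 10 passed the filter on low counts. The series held 6 poly(A) RNA-seq libraries, 3 labelled DMSO and 3 labelled GSK-126, each with a replicate number from 1 to 3. Per the study's methods, granule neuron precursors of CD1-IGS mice about 1 week old were enriched on Percoll, all cultures received cytosine arabinoside to stop division of non-neuronal cells, and the inhibitor was added a single time. The labels gave agent and replicate number only, neither dose nor day, and they called the source cerebellum where the titles said CGN. A day code in the table names was read as addition on the first day of culture, which no label states. The agent is the only difference between groups that the labels record. Each library is a mixed culture of neurons and other cells, as marker levels given further on show.

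As background, neurofilaments are the intermediate filaments of axons. They are built from a light (Nefl), a medium (Nefm) and a heavy (Nefh) chain together with internexin alpha (Ina), which many neurons make before the other chains. Microtubules in dendrites and axons are bundled and stabilised by MAP2 and tau (Mapt), whereas MAP1B, doublecortin (Dcx) and the tubulin-binding stathmins (Stmn1 and the growth cone protein Stmn2) are best known from migrating and growing neurons. A young neuron is therefore often described as rich in Dcx, Stmn1, Stmn2, Map1b and Ina, and a mature one as rich in Nefl, Nefm, Nefh, Map2 and Mapt. EZH2 is the catalytic subunit of Polycomb repressive complex 2, which places H3K27me3, a mark of repressed genes. In mammals this complex is mostly found at promoters rich in the dinucleotide CG. The comparison addressed whether genes tied to the immature and the mature cytoskeleton differ when this enzyme is inhibited in postmitotic neurons.

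The genes lie on 8 chromosomes in GRCm38 (GENCODE M21). Nefl (chromosome 14, 68083863 to 68089095, plus strand) and Nefm (68082590 to 68124846, minus strand) are neighbours, and the last exon of a long Nefm transcript covers most of the first exon of Nefl on the opposite strand. The shared stretch runs from 68083863 to 68084970, or 1108 bases, which is 32.8% of the Nefl exons and 19.2% of the Nefm exons. Nefh lies on chromosome 11 (4938754 to 4948064, minus strand) and Mapt on the same chromosome (104231390 to 104332090, plus strand). Ina lies on chromosome 19 (47014698 to 47025327, plus strand), where 14.1% of its exons overlap Nt5c2 on the other strand. Map2 is on chromosome 1 (66175273 to 66442583, plus strand) with 24 annotated transcripts, and Mapt has 12. Counts per gene do not separate these transcripts, so the embryonic and adult forms of tau and MAP2 were not told apart here. Map1b is on chromosome 13 (99421446 to 99516540, minus strand), Dcx on the X chromosome (143855842 to 143933311, minus strand), Stmn1 on chromosome 4 (134468320 to 134473843, plus strand) and Stmn2 on chromosome 3 (8509360 to 8561606, plus strand).

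RefSeq promoters of GRCm38.p6, from 250 bases before to 50 after a start site, were at hand for 4 of the 10 genes, Map2, Ina, Map1b and Dcx. They are shown because they hold both CG-rich and CG-poor windows. Every CG is in capitals, and each sequence reads 5′ to 3′ on the strand of its gene.
Map2 (chr1:66175079-66175378, plus strand): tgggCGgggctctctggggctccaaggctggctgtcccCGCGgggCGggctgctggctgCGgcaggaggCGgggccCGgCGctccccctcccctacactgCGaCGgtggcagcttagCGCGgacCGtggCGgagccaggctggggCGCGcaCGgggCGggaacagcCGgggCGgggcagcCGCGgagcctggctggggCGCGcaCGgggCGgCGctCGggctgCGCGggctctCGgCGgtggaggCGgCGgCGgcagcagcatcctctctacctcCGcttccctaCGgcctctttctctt
Ina (chr19:47014431-47014730, plus strand): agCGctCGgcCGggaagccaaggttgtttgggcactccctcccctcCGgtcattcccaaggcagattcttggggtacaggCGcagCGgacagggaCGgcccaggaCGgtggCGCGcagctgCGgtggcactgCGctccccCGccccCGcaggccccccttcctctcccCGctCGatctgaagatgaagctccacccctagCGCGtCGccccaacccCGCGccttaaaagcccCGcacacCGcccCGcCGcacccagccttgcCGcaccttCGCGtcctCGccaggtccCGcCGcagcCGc
Map1b (chr13:99516553-99516852, minus strand): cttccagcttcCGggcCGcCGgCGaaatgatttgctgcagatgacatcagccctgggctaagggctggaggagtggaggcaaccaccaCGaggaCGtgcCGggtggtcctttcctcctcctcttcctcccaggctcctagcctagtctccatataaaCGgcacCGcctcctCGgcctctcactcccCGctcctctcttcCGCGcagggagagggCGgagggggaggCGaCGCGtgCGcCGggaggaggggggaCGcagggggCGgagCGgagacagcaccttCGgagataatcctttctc
Dcx (chrX:143933170-143933469, minus strand): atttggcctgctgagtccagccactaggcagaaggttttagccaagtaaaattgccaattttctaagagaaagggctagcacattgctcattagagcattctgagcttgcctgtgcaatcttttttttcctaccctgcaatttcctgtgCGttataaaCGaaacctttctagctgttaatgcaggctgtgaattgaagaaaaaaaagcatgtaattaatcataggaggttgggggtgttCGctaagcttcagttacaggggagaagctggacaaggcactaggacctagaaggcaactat

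The Map2 window held 37 CG dinucleotides, a number reached by 5.58% of the 32851 promoters of this length. Ina held 32 (9.52% of promoters hold as many) and Map1b held 23 (21.5%), against a median of 7 over all promoters. Dcx held 3, as did its second annotated start, and 76.7% of promoters hold as many or more. The GC content followed the same order, at 77.7% for Map2, 71.7% for Ina, 65.7% for Map1b and 43.0% for the Dcx window printed, with a median of 52.7% over all promoters. On either strand the GC-box core GGGCGG occurred 5 times in Map2 and 2 times each in Ina and Map1b, and 35.7% of all promoters hold it. The letters TATAAA occurred 1 time in Map1b and 1 time in Dcx (13.6% of all promoters), and the E-box CAGATG 1 time in Map1b (17.2%). These are matches of letters and no evidence of binding. No histone mark was measured in these libraries.

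The libraries held from 8058760 to 12047837 counts over genes, and GSK-126 replicate 1 was the deepest. Libraries with the same number deviated together from their group means (r = 0.351, 0.503 and 0.517 across genes, against -0.41 to -0.01 for other combinations). The 3 deviations of a group sum to 0, so positive values for same numbers push the others below 0. By chi-square per degree of freedom of the counts, replicates 2 (13.8) and 3 (9.98) were nearest to their partners. DMSO replicate 1 was nearer to GSK-126 replicate 2 (17.1) than to GSK-126 replicate 1 (22.9). The numbers were read as pairing the libraries, which no label states. A second fit, in which that number is a block, is therefore printed with the first where the call differs. In this bulk material fewer cells of a type and less RNA per cell cannot be told apart. The marker sums of other cells varied between replicates: astrocyte markers summed to 8138, 2835 and 5130 CPM (counts per unit of TMM-scaled library size) with DMSO and to 8490, 2809 and 4431 CPM with GSK-126 in replicates 1, 2 and 3. All 12 astrocyte markers were tested.

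With GSK-126 nearly all of the cytoskeleton genes lay in the opposite order, and with DMSO their orders were mixed. GSK-126 replicate 1 had the lowest level of its group for 10 of the 10 genes, and GSK-126 replicate 2 had the highest for 9. With DMSO, replicate 1 was lowest for 8 genes and replicate 2 was highest for 6. Dcx followed the astrocyte order with DMSO (262, 193.5 and 250.4 CPM in replicates 1, 2 and 3), and Map1b was highest in replicate 1. The share of all genes tested with such orders was not counted. The part of astrocyte content in these orders was not tested.

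**Figure D1:**
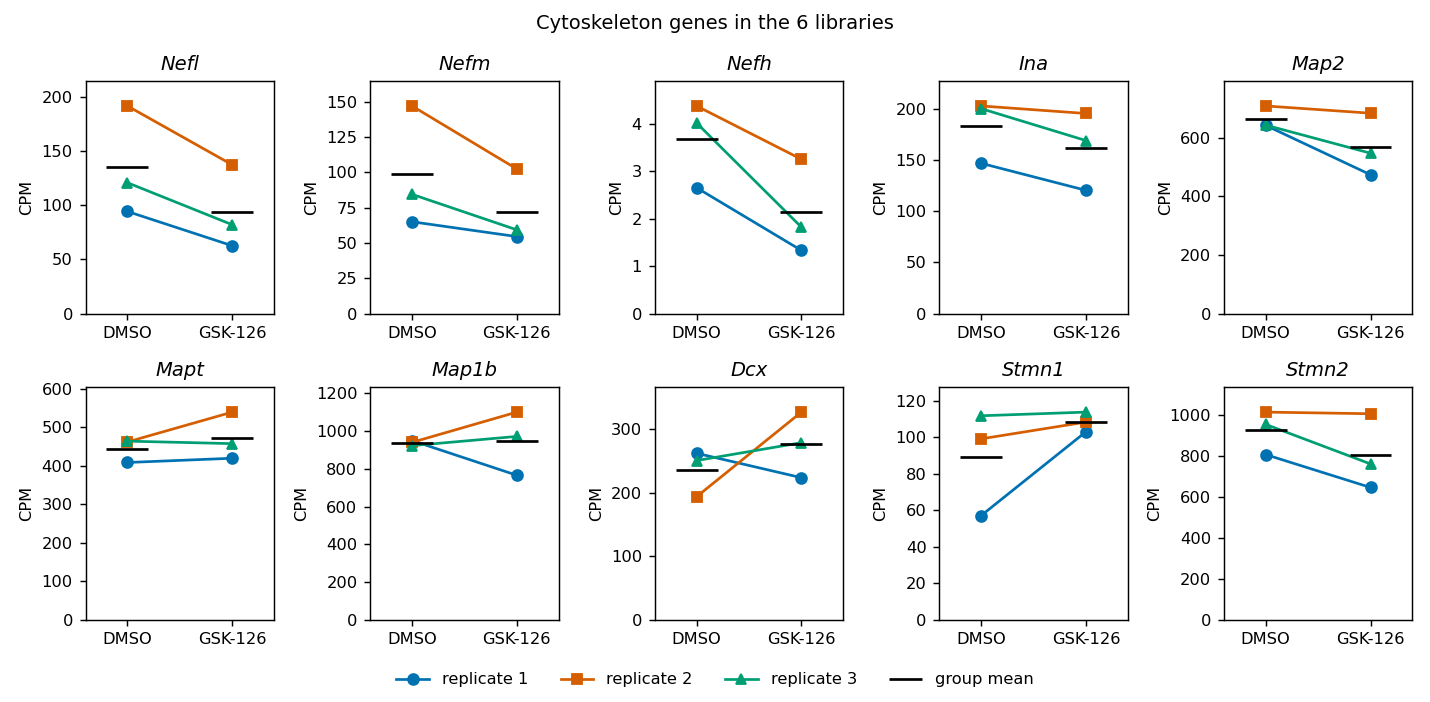
Normalised level (CPM, linear axis from 0) of each of the 10 genes in the 3 DMSO and the 3 GSK-126 libraries. Lines join libraries with the same replicate number and black bars are group means. Nefl falls along 3 nearly parallel lines, while Dcx is higher in 2 pairs and lower in 1.

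With treatment as the only term, 0 of the 10 genes passed an adjusted p of 0.05 (edgeR quasi-likelihood test, Benjamini-Hochberg over 16343 genes), and 0.00% of all genes did. None of the 10 had an unadjusted p under 0.05 in that fit, where 981 of 16343 genes did. DESeq2 and limma without a block also called 0 of them. With the replicate block 1 of the 10 was called, Nefl, against 3.65% of all genes tested, and 3 had an unadjusted p under 0.05 (Nefl, Nefm and Map2), where 16.7% of all genes did. The 2 groups overlapped in CPM for 10 of the 10 genes, so 0 were separated, and 10.9% of all genes tested were. By pair, 6 genes were lower with GSK-126 in 3 of 3 pairs (Nefl, Nefm, Nefh, Ina, Map2 and Stmn2), where 19.3% of all genes were, and 1 was higher in 3 of 3 pairs (Stmn1), where 19.7% were. The 3 others, Mapt, Map1b and Dcx, went both ways. The median log2 fold change of the 10 genes with the block was -0.21, and that of all genes tested was -0.00.

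**Figure D2:**
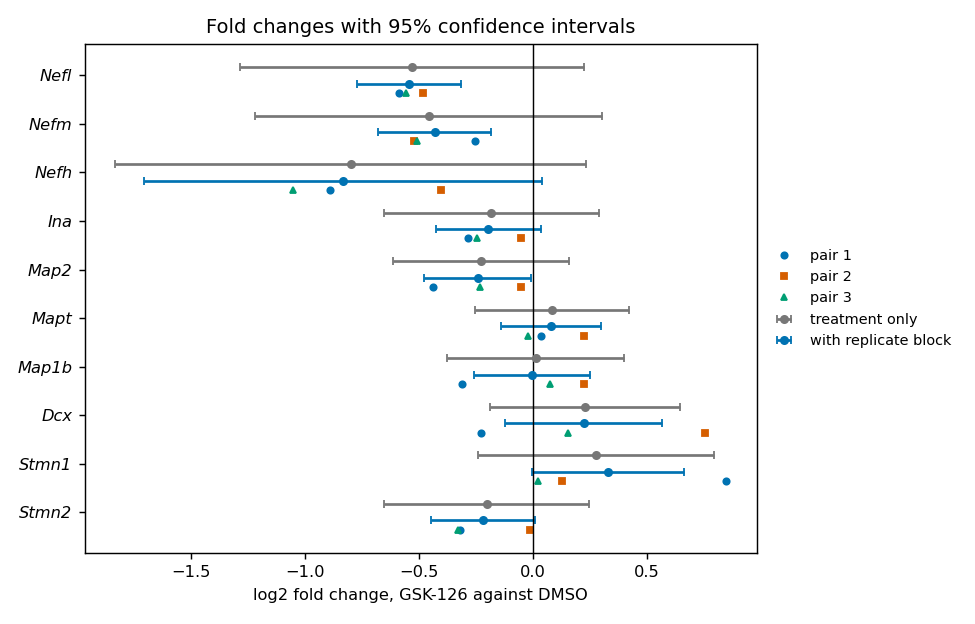
Log2 fold change of GSK-126 against DMSO for each gene, with bars for the 95% confidence interval of the fit without (grey) and with (blue) the replicate block, and small marks for the ratio in each pair. The Nefl and Nefm bars with the block lie below 0 in full, as does the Map2 bar, while the bars without the block cross 0 for every gene.

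Nefl encodes the light chain, on which the other neurofilament chains assemble. It had 94.2, 192 and 121 CPM in DMSO replicates 1, 2 and 3 and 62.6, 137 and 82.0 CPM in the GSK-126 replicates, from 720 to 1532 counts per library. Replicate 2 was highest in both groups, and its GSK-126 library lay above 2 of the 3 DMSO libraries, so the groups overlapped. Within pairs the picture was even: the log2 ratio was -0.59, -0.48 and -0.56. The mean went from 136 ± 50.3 to 94.0 ± 38.7 CPM (SD, n = 3 each). The fit without the block put the log2 change at -0.53 (edgeR adjusted p 0.841, SE 0.331). With the replicate block Nefl fell, and the log2 change was -0.54 (SE 0.105, 95% interval -0.77 to -0.31, edgeR adjusted p 0.0176), a change of -31.3%. It ranked 267 of 16343 genes by p in that fit. Without a block the value depended on replicate 2, since leaving out the DMSO library of that number gave -0.19 and leaving out the GSK-126 library gave -0.91. When GSK-126 replicate 1 was left out it was -0.31. With the block it stayed between -0.56 and -0.52 when 1 replicate number was left out. The call was kept without replicate 1 (edgeR adjusted p 0.0128) and was lost without replicate 2 (0.0797) and without replicate 3 (0.133).

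Nefm encodes the medium chain. Its level was 65.1, 147 and 84.5 CPM with DMSO and 54.6, 102 and 59.3 CPM with GSK-126, with the same order of replicates as Nefl. The log2 ratio was -0.25, -0.52 and -0.51 in pairs 1, 2 and 3, so pair 1 moved least. With the block its log2 fold change was -0.43 (SE 0.113, 95% interval -0.68 to -0.18, edgeR adjusted p 0.0642), short of the threshold, and -0.46 (SE 0.333, adjusted p 0.841) without. It was -0.04 without DMSO replicate 2 in the fit without the block. When replicate 1 was left out of the fit with the block, Nefm was called too (-0.52, edgeR adjusted p 0.0165).

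Reads from the exon that Nefl and Nefm share may be dropped or given to the wrong gene, depending on how strand was used in counting, which the sources do not state. Of 4 antisense genes that lie inside an exon of a well-counted gene on the other strand, 3 had a read density from 1.76 to 3.78 times that of the host and 1 had 0.0107 times. Reads that the counting matched to no gene exon were 1.08 to 1.16 times the reads in genes. If strand was used, they include reads over an exon on the other strand. From 0.913% to 1.11% of reads were ambiguous between genes. The strand setting itself was not tested. If the shared bases carried Nefl reads at the mean density of the Nefl exons, from 37.7% to 47.5% of the Nefm count would come from Nefl. With that share taken off, Nefm had 34.1, 84.3 and 44.9 CPM with DMSO and 34.0, 57.5 and 32.5 CPM with GSK-126. The log2 ratio in pair 1 was then -0.01, whereas pairs 2 and 3 stayed at -0.55 and -0.47. The log2 fold change of Nefm with the block became -0.35 (SE 0.140, edgeR adjusted p 0.235). The reverse correction, which takes Nefm density off Nefl, left Nefl at -0.56 with the block (SE 0.107, edgeR adjusted p 0.0166). The likeness of Nefl and Nefm described further on carries the same limit.

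Nefh, the heavy chain, is known as the last of the 3 to appear in maturing axons. It was hardly expressed, with 23, 35 and 34 counts in the DMSO libraries and 16, 27 and 16 counts in the GSK-126 libraries. In CPM this was 2.65, 4.38 and 4.02 against 1.33, 3.25 and 1.82. Each GSK-126 library lay below its DMSO partner, but GSK-126 replicate 2 lay above DMSO replicate 1. The fitted value with the block was the largest in size of the 10 and the least certain, at -0.83 (SE 0.397, 95% interval -1.70 to 0.04, edgeR adjusted p 0.325).

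Ina, the internexin that often precedes the other chains, had 147, 203 and 199.9 CPM with DMSO and 120, 195 and 169 CPM with GSK-126. Pair 2 hardly differed (log2 ratio -0.05), and pairs 1 and 3 had -0.29 and -0.24. Its log2 fold change with the block was -0.19 (SE 0.105, 95% interval -0.43 to 0.04, edgeR adjusted p 0.397). Expressed against Nefl, Ina stood at 1.56, 1.06 and 1.66 with DMSO and at 1.92, 1.42 and 2.06 with GSK-126, higher in 3 of 3 pairs with overlapping groups. The 4 filament genes together had a median log2 fold change of -0.49 with the block, beside -0.00 over all genes tested, and 4 of 4 were lower in 3 of 3 pairs. Only Nefl passed the test.

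Map2 encodes the main dendritic microtubule-associated protein. Its CPM were 643, 709 and 644 with DMSO and 474, 684 and 548 with GSK-126. The DMSO libraries lay close together, and 1 GSK-126 library, replicate 2, fell inside their range. The mean was 665 ± 38.0 against 569 ± 107 CPM (SD, n = 3 each). The fits gave -0.23 without the block (SE 0.169, edgeR adjusted p 0.843) and -0.24 with it (SE 0.106, 95% interval -0.47 to -0.01, adjusted p 0.283). The log2 ratio was uneven across pairs, at -0.44, -0.05 and -0.23. With the block the estimate was -0.14 when replicate 1 was left out, and the fit with no block ran from -0.38 (GSK-126 replicate 2 omitted) to -0.11 (GSK-126 replicate 1 omitted). The same omissions took Ina from -0.34 to -0.01 and Stmn2 from -0.39 to -0.07.

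Mapt encodes tau, the main axonal member. It had 408, 461 and 463.5 CPM with DMSO and 419, 539 and 457 CPM with GSK-126. Thus 2 pairs were higher and 1 was lower, and GSK-126 replicate 2 lay above the 3 DMSO libraries while the other 2 GSK-126 libraries lay within their range. The log2 fold change with the block was 0.08 (SE 0.101, 95% interval -0.14 to 0.30, edgeR adjusted p 0.762).

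Map1b is the microtubule-associated protein of growing axons. Its 3 DMSO libraries were the most alike of any gene in the set, with 949.7, 940.1 and 923 CPM (SD 13.7). The GSK-126 libraries spread on both sides of them, at 766, 1100 and 972 CPM (SD 169). The log2 ratio was -0.31, 0.23 and 0.07 by pair, and the fold change was 0.01 without the block and -0.00 with it (SE 0.116, 95% interval -0.26 to 0.25, edgeR adjusted p 0.995).

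Dcx marks migrating and newly postmitotic neurons. It had 262, 193.5 and 250.4 CPM with DMSO and 223, 326.5 and 278.5 CPM with GSK-126. Its order of DMSO replicates was the reverse of that of Nefl, with replicate 2 lowest. The log2 ratio was -0.23, 0.75 and 0.15 by pair, and the fold change with the block was 0.22 (SE 0.157, 95% interval -0.12 to 0.57, edgeR adjusted p 0.525). The value rests on pair 2, since it was -0.02 with the block when replicate 2 was left out.

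Stmn1, which binds free tubulin and is abundant in immature neurons, had 57.1, 99.1 and 112 CPM with DMSO and 103, 108 and 114 CPM with GSK-126. DMSO replicate 1 stood apart at the low end, and the other 5 libraries lay within 99.1 to 114 CPM. Pair 1 accordingly had a log2 ratio of 0.85, whereas pairs 2 and 3 had 0.13 and 0.03. With the block the fold change was 0.33 (SE 0.152, 95% interval -0.00 to 0.66, edgeR adjusted p 0.307), and it was 0.08 when replicate 1 was left out.

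Stmn2, a growth cone stathmin, had 807.5, 1015 and 955 CPM with DMSO and 647, 1007 and 762 CPM with GSK-126. Pair 2 was level (log2 ratio -0.01), and pairs 1 and 3 had -0.32 and -0.33. The fold change with the block was -0.22 (SE 0.104, 95% interval -0.45 to 0.01, edgeR adjusted p 0.323). Although Stmn1 and Stmn2 are grouped as genes of young neurons, their estimates had opposite signs, and neither passed the test.

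Levels were compared between genes per kb of exon, as mean DMSO level in CPM per kb. The length was the union of the exons of all annotated transcripts, such as 16449 bases for Map2 and 3380 for Nefl. Genes with many or long alternative exons come out lower by this measure, so the order depends in part on annotation. Stmn2 was highest, with 165 ± 19.1 (SD, n = 3), and its libraries did not overlap those of the next gene. Then came Map1b (59.2 ± 0.864), Mapt (59.0 ± 4.17), Ina (56.5 ± 9.74), Stmn1 (46.5 ± 14.9), Map2 (40.4 ± 2.31) and Nefl (40.1 ± 14.9), each of which overlapped its neighbour in this order. Dcx (18.6 ± 2.89) lay below Nefl without overlap and beside Nefm (17.1 ± 7.41). Nefh stood far below, with 0.922 ± 0.228. Per kb, the light chain was thus within the range of the microtubule-associated proteins, the medium chain was lower, near Dcx, and the heavy chain was lowest. Exon bases shared with another gene were then left out of the length, a choice made after seeing the data. Reads over those bases stayed in the count, so these levels could only rise. Nefl moved from place 7 to 3 with 59.6 ± 22.1, Ina from 4 to 2 with 65.7 ± 11.3 and Nefm from 9 to 8 with 21.1 ± 9.16. With GSK-126 the order was the same for Stmn2, Map2, Nefl, Dcx, Nefm and Nefh, and Map1b and Mapt traded places, as did Ina and Stmn1.

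**Figure D3:**
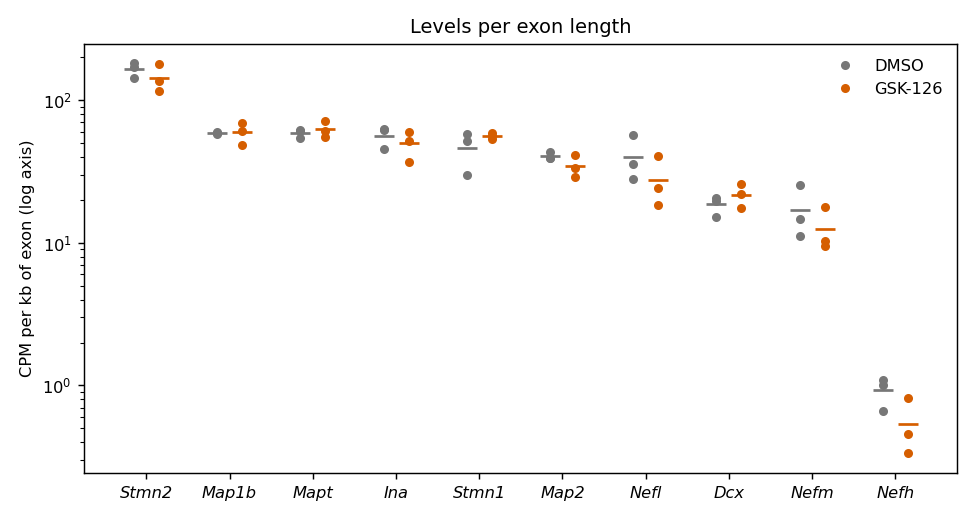
Level per exon length (CPM per kb, log axis) of the 10 genes, ordered by the DMSO mean, with 1 point per library and a bar for each group mean. Stmn2 lies on top at 165 CPM per kb with DMSO, Nefh at the bottom at 0.922, and the 6 genes from Map1b to Nefl form one overlapping band.

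Ratios of 2 genes within a library do not depend on depth, and they were taken for the 45 pairs of the 10 genes. The groups did not overlap for 10 of the 45, where 10.9% of all pairs of tested genes did not. Of these 10 ratios 5 involve Nefh with its few counts, and 0 involve Nefl or Nefm. Map2, Mapt and Dcx were each involved in 3. Map2 relative to Mapt was 1.57, 1.54 and 1.39 with DMSO and 1.13, 1.27 and 1.20 with GSK-126. Map2 relative to Map1b was 0.677, 0.754 and 0.698 against 0.619, 0.622 and 0.564. Map2 relative to Dcx was 2.45, 3.66 and 2.57 against 2.12, 2.10 and 1.97. Map1b relative to Dcx was 3.62, 4.85 and 3.68 against 3.43, 3.37 and 3.49. In each of these the 3 GSK-126 libraries lay below the 3 DMSO libraries. The levels of Map2, Mapt, Map1b and Dcx themselves did not pass the test. Mapt relative to Stmn2 went the other way, with 0.506, 0.455 and 0.486 against 0.648, 0.535 and 0.600. Dcx relative to Nefl was 2.78, 1.01 and 2.07 with DMSO and 3.57, 2.38 and 3.40 with GSK-126. It was higher in 3 of 3 pairs, but GSK-126 replicate 2 lay below DMSO replicate 1. No test was attached to these ratios.

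The genes were also split by when they are best known in neuronal development, 5 early (Dcx, Stmn1, Stmn2, Map1b and Ina) and 5 late (Nefl, Nefm, Nefh, Map2 and Mapt). The early genes exceeded the late ones in mean log2 CPM by 1.70, 1.29 and 1.72 with DMSO and by 2.07, 1.75 and 2.13 with GSK-126. The difference was larger with GSK-126 in 3 of 3 pairs, and the lowest GSK-126 library (1.75) lay just above the highest DMSO library (1.72). Without Nefh, the gene with few counts, it was 0.48, 0.08 and 0.56 against 0.73, 0.49 and 0.82, which overlap. The early genes had a median log2 fold change with the block of -0.00 and the late ones of -0.43, with 0 and 1 genes called. Of the late genes Mapt had a positive estimate with the block. Of the early genes Ina, Stmn2 and Map1b had negative ones, Map1b at -0.00. The split thus did not sort the 10 genes by sign.

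**Figure D4:**
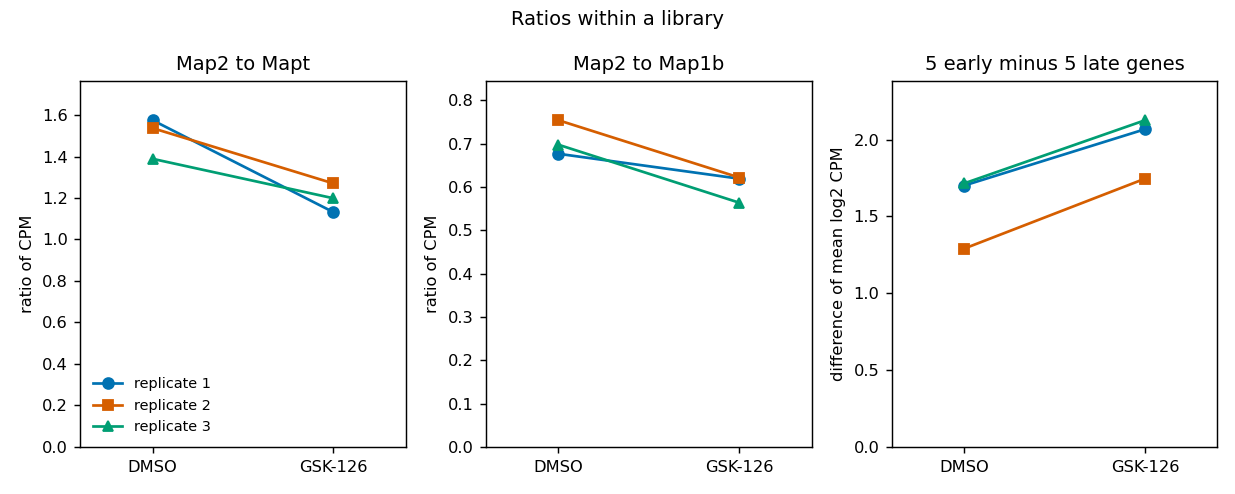
Ratio of Map2 to Mapt and of Map2 to Map1b (ratio of CPM), and the mean log2 CPM of 5 early minus 5 late genes, in each library, with lines that join libraries of the same replicate number. The 3 GSK-126 libraries lie below the 3 DMSO libraries in the first 2 panels and above them in the last.

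Across the 6 libraries the members fell into patterns that are described here without a test, because the libraries share treatment, replicate number and culture makeup. Nefl tracked Nefm (r = 0.977), Stmn2 (0.952) and Map2 (0.922), and Nefh tracked Stmn2 (0.955). Stmn2, an early gene, thus sat with the neurofilaments. Dcx did not go with these genes, with r = -0.159 against Nefl and -0.261 against Nefm. The genes most like Nefl among 11410 candidates with at least 10 CPM were Nrep (0.998), Ndrg4 (0.997) and Ust (0.997), and 312 candidates exceeded r = 0.95. For Map2 they were Asxl3 (0.999), Pafah1b1 (0.996) and Cnr1 (0.995), and for Nefm Vamp2 (0.997), Herc3 (0.996) and Sobp (0.994). Nefh was nearest to Lgi3 (0.994), Ina to B630019K06Rik (0.990), Stmn2 to Uchl1 (0.995), Mapt to Actr6 (0.996), Map1b to 1700007J10Rik (0.979), Dcx to Heatr5b (0.988) and Stmn1 to Nkiras2 (0.987). Fewer candidates followed Dcx, where 7 exceeded r = 0.95, and Mapt, where 13 did. Of the nearest genes of Nefl, Nrep, the neuronal regeneration related protein gene, was called with the block (-0.41, edgeR adjusted p 0.0359).

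The other genes of the axonal and microtubule cytoskeleton were taken from 9 lists with 136 genes, of which 132 were tested. Without the block 0 were called, and with it 3 were, 2 higher and 1 lower, against 2.23% of all genes tested called higher and 1.42% called lower. Synm encodes synemin, an intermediate filament protein that joins vimentin and desmin filaments. It rose from 11.1 to 20.3 mean CPM (block log2 fold change 0.86, SE 0.193, edgeR adjusted p 0.0340). Basp1, a membrane protein of growth cones, rose from 321 to 451 CPM (0.51, SE 0.112, edgeR adjusted p 0.0305). Mapre3, the neuronal end-binding protein EB3 that rides on growing microtubule ends, fell from 104 to 74.9 CPM (-0.47, SE 0.106, edgeR adjusted p 0.0345). These 3 genes were separated between groups in CPM. The calls depended on single replicate numbers. In blocked fits without replicate 1, 2 or 3, the list with Synm (other intermediate filament genes) had 0 genes called each time. The list with Mapre3 (end-binding and minus-end proteins) had 1 called lower without replicate 1 and 0 without replicate 2 or 3. The list with Basp1 (growth cone genes) had 1 called higher without replicate 1, 0 without replicate 2 and 1 without replicate 3. Over the 132 genes the median log2 fold change with the block was -0.08, with 91 negative and 41 positive. In 3 of 3 pairs, 44 of the 132 were lower and 13 higher, where 19.3% of all genes tested were lower and 19.7% higher.

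By list, 13 of 13 axon initial segment and spectrin genes had a negative value with the block (median -0.14), though 0 were called. Sptbn4, the beta-IV spectrin of the initial segment, had -0.45 (edgeR adjusted p 0.0642) and Epb41l3 had -0.31 (0.171). Among kinases that act on tau, MAP1B, doublecortin and neurofilaments, 18 of 20 were negative (median -0.19), 12 were lower in 3 of 3 pairs, and 0 were called. Mapk10, the neuronal JNK3, had -0.35 (edgeR adjusted p 0.105) and Mark3 had -0.23 (0.278). Without 1 library the median of the kinases ran from -0.26 to -0.09 and that of the initial segment genes from -0.30 to -0.06, without the block. In both lists the median had the sign of the Nefl estimate, as it did in most of the other lists.

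The remaining lists were more even. Of 20 motors and adaptors of axonal transport 15 were negative (median -0.08), with -0.33 for Kif5c (edgeR adjusted p with the block 0.145) and -0.999 for Dync1i1 (0.0955). Of 20 end-binding and minus-end proteins 14 were negative (median -0.08), as were 8 of 11 severing and depolymerizing proteins (median -0.11), with -1.02 for Kif19a (edgeR adjusted p 0.164) and 0.82 for Fign (0.406), both with few counts. Other structural microtubule-associated proteins had 14 of 19 negative (median -0.06), with -0.39 for Map6d1 (edgeR adjusted p 0.294) and -0.39 for Mtcl1 (0.0729). Other doublecortin and stathmin genes were split, 3 against 3 (median -0.05), with -0.29 for Dclk2 (edgeR adjusted p 0.190) and 0.85 for Dcdc2a (0.284). On the positive side, other intermediate filament genes had 9 of 10 above 0 (median 0.13) and growth cone genes 8 of 13 (median 0.02). The intermediate filament list holds Vim and Gfap, which astrocytes express. Prph, Dclk3, Katna1 and Dpysl4 were not tested.

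**Figure D5:**
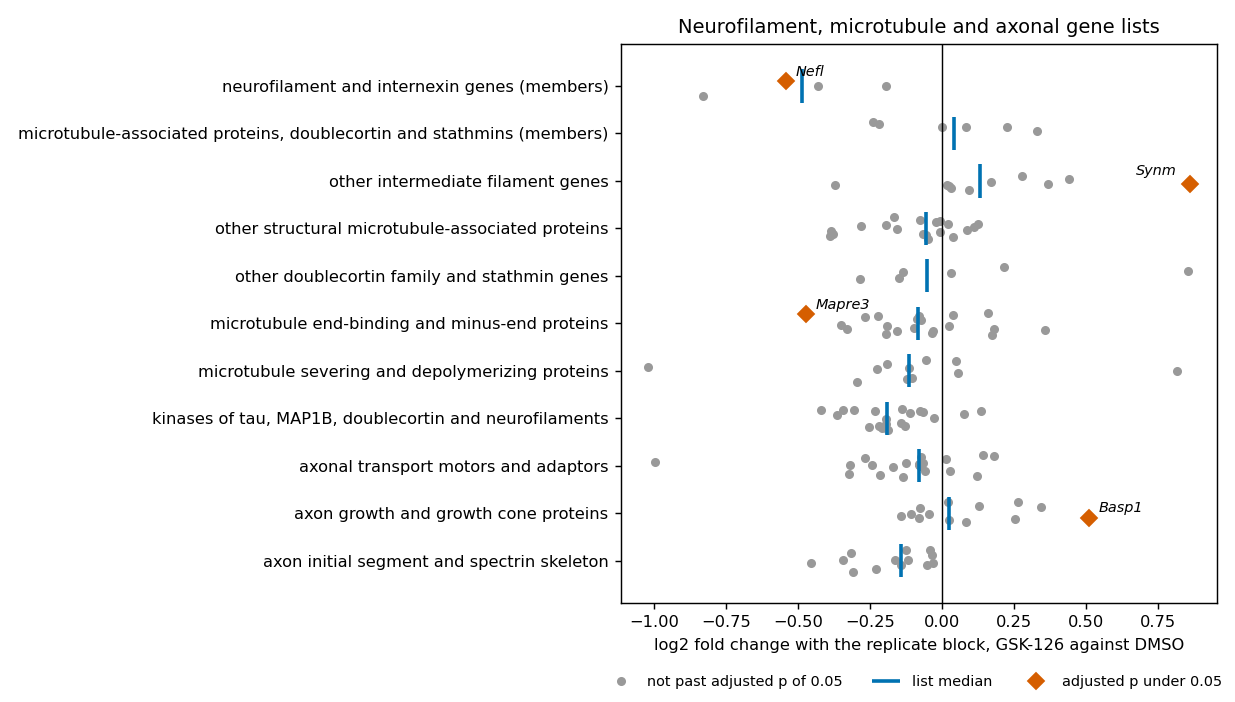
Log2 fold change with the replicate block (x axis) of each tested gene in the sets of members and in 9 further lists, with a blue bar for the list median. Diamonds mark the 4 genes past an adjusted p of 0.05, Nefl, Synm, Mapre3 and Basp1. The filament members lie left of 0 and other intermediate filament genes mostly right of it.

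Markers of the neurons and of other cells moved with these results. Granule neuron markers summed to 4378, 6590 and 4836 CPM with DMSO and to 3058, 4789 and 3436 CPM with GSK-126. Of 12 tested, 11 were negative with the block and 8 were called lower, among them Neurod1 (-0.58, edgeR adjusted p 0.0265) and Rbfox3 (-0.59, adjusted p 0.0180), whereas Pax6 had 0.04 (adjusted p 0.895). The sum was highest in replicate 2 in both groups, as Nefl was. Markers of GABAergic neurons summed to 297 to 396 CPM with DMSO and to 246 to 288 CPM with GSK-126. Of 11 tested, 9 were negative and 2 were called lower, among them Slc32a1 (-0.58, edgeR adjusted p 0.0283), and Skor2 had 0 counts. Fibroblast markers summed to 8668 to 11714 CPM with DMSO and to 11831 to 14666 CPM with GSK-126, with 3 of 12 called higher (Col1a1, Igf2 and Fn1). Endothelial and mural markers summed to 489 to 757 against 838 to 1048 CPM, with 3 of 9 tested called higher (Flt1, Pdgfrb and Acta2) and Cldn5, Ly6c1 and Kcnj8 too low to be tested. Microglial markers summed to 377 to 672 against 466 to 946 CPM, with 3 of 11 tested called higher (C1qb, C1qc and Cd68). Oligodendrocyte lineage markers summed to 546 to 815 against 605 to 943 CPM, with 1 of 12 called higher (Cspg4), and those of precursors and dividing cells to 702 to 1019 against 928 to 1315 CPM, with 1 of 10 tested called higher (Ccnd2). Atoh1 and Gli1, which define precursors, were too low to be tested. Of the 12 astrocyte markers 1, Gdf10, was called higher. With the block, 10 of 12 fibroblast, 7 of 9 endothelial and mural and 9 of 11 microglial markers were positive. So were 8 of 10 precursor markers, 7 of 12 astrocyte markers and 6 of 12 oligodendrocyte lineage markers. Of all genes tested, 2.23% were called higher and 1.42% lower in that fit. These calls also depended on single replicate numbers. In blocked fits without replicates 1, 2 and 3, granule neuron markers had 8, 4 and 6 called lower and GABAergic markers 2, 0 and 0. Microglial markers had 0, 1 and 3 called higher in these fits, fibroblast markers 3, 2 and 3, and endothelial and mural markers 4, 1 and 3. The called markers were named after their values were seen. The part of these shifts in the values of Nefl and the other genes was not tested.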

How the data were processed

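Poly(A) RNA of 6 CGN cultures was sequenced with paired ends. The deposited values are raw read counts per gene, 1 table per library, not normalised. The study's methods and the submitters' processing notes name Trimmomatic 0.38, STAR 2.7.2b, mm10 and HTSeq over exons, and the strand setting is not given in the sources used here. Multiply aligned reads were not assigned, so near-identical genes are undercounted. The 5 summary rows were left out.

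Groups came from the agent label. Genes were filtered with filterByExpr, scaled with TMM and tested with the edgeR 4.0.16 quasi-likelihood test (treatment only, R 4.3.3), with Benjamini-Hochberg adjustment over 16343 genes and a threshold of 0.05. The replicate block, RLE factors, no filter, DESeq2 1.42.0, limma 3.58.1 and leaving out libraries were alternatives. The numbers were taken to pair the libraries because every same-numbered pair correlated above 0.1 and a culture replicate was pooled litters. Fits were tested on simulated data. CPM carry TMM factors, and pair ratios use a prior count of 2. No 2 libraries agreed within counting noise (lowest chi-square per degree of freedom 9.98). A count of 3 equals 0.249 to 0.372 CPM, which covers counting error only. Pathway genes were named when past the threshold, otherwise the 2 of smallest p per list. The members and lists were chosen with earlier results of these data known. Some results are not reported here.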

Additional observations from a re-analysis of the deposited data

How the results depend on the processing

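The replicate block changed the counts most. Without it 0 genes were called higher and 0 lower, as with RLE factors, limma and each of the 6 fits that left out a library (range 0 to 0). With the block the counts were 365 higher and 232 lower, with 1 member and 3 pathway genes. DESeq2 with the block gave 408 and 266, with 1 member and 7 pathway genes, and DESeq2 alone 46 and 13 with 0 of either. Without a filter 55 and 30 genes were called. Blocked fits on 2 pairs called 396 higher and 308 lower without replicate 1 (2 members, 6 pathway genes), 125 and 53 without replicate 2 (0 and 0), and 211 and 148 without replicate 3 (0 and 1).

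Nefl kept its sign in every fit. DESeq2 with the block gave -0.54 (adjusted p 0.00338). Some estimates near 0 changed sign. Map1b was -0.0027 with the replicate block and -0.0029 with limma, and ran from -0.11 to 0.14 when 1 library was left out (-0.0074 for GSK-126 replicate 3). In the blocked fits on 2 pairs Map1b was -0.10 without replicate 2 and -0.041 without replicate 3, and Dcx was -0.022 without replicate 2. Mapt ran from -0.020 to 0.16 when 1 library was left out. The cause was not tested. Nefh, with 16 to 35 counts per library, is limited by depth.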
